A study of Drosophila melanogaster with 14 samples.

Results

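The genes described here are the cytosolic ribosomal protein genes of *Drosophila melanogaster* and their duplicated copies. They were taken as all genes of the IFM (indirect flight muscle) table whose symbol starts with RpL, RpS or RpLP followed by a number, which gave 92 of 17890 genes. Of these, 54 carry a large (60S) subunit name and 38 a small (40S) subunit name. In the wing disc table of 17490 genes, 87 of them were found under the same FlyBase identifier. The other 5 (*RpL19*, *RpL27A*, *RpL31*, *RpS10b* and *RpS12*) were found by symbol under another identifier.

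RNA-seq was done on dissected IFM from pupae at 96 h after puparium formation and on whole wing imaginal discs of wandering larvae in their last instar. The IFM libraries came from *Tet* null pupae, from *Tet* CD pupae (a knock-in of catalytic dead TET fused to GFP), from *Tet-GFP* pupae (the knock-in of intact TET fused to GFP) and from wild-type pupae (the w1118 strain), with 2 libraries each. The wing disc libraries came from *Tet* null larvae and from wild-type larvae of that strain, with 3 libraries each. *Tet* null and *Tet* CD animals were homozygous, and TET is an enzyme of the family that oxidises methylated bases in nucleic acids. Other differences between the mutant and w1118 lines cannot be told apart from the loss of *Tet*. *Tet* itself was at 0.405 and 0.219 RPKM in the *Tet* null IFM libraries, against 2.04 and 3.01 RPKM in wild-type IFM. In the discs it was at 0.390, 0.475 and 0.352 RPKM in *Tet* null and at 203, 148 and 205 RPKM in wild type. RPKM are reads divided by the exon length and by a scale for the size of the library, so that levels of different genes are given per length. This scale was not the plain total of reads on genes.

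Ribosomes translate every mRNA of a cell, and each is built from ribosomal RNA and a fixed set of proteins of which most are needed in a single copy. The genes of these proteins are therefore usually transcribed in proportion to each other, and at higher levels in growing cells than in cells that have stopped dividing. In flies, losing a single copy of many of these genes gives the Minute phenotype of slow growth and thin bristles. Larval wing discs proliferate, whereas IFM at the pharate stage are multinucleate fibres.

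The libraries were deep enough to place most of these genes. Low RPKM values fell on a grid that put the scale of the libraries at 35.7 to 49.1 M reads in IFM and 21.5 to 31.2 M reads in discs, so that a single read on 1 kb stood for 0.0204 to 0.0280 RPKM in IFM and 0.0320 to 0.0465 RPKM in discs. Flight muscle markers were present in all IFM libraries, with a summed level of 34739 to 44893 RPKM in *Tet* null IFM and 36037 to 40846 RPKM in wild-type IFM, and with 48.4 to 93.8 RPKM in *Tet* null discs and 37.3 to 60.5 RPKM in wild-type discs. Wild-type disc library 2 stood apart. Its lower quartile over all genes was 2.12 RPKM, against 0.0371 to 0.132 RPKM in the other 5 disc libraries, and 976 genes were listed at 0 there, against 2376 to 3978. Disc results that moved without it are therefore given both ways. In IFM, *Tet* null library 2 had the fewest genes at 0, 1833 against 3285 to 4801 in the other 7 libraries, and the highest lower quartile, 0.0938 RPKM against 0 to 0.0448 RPKM. Replicates are described by their submitters as biological.

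Most members were abundant, since 81 of the 92 genes had a median of at least 20 RPKM over the IFM libraries, and these were at 71.1 RPKM or more in every disc library. Over these 81 genes the median of the wild-type means was 881 RPKM in discs and 234 RPKM in IFM. The median ratio of disc to IFM was 3.86, with a range of 0.871 to 11.1. Without wild-type disc library 2 the disc median was 959 RPKM and the median ratio 4.30. The 2 tables were normalised separately and the tissues differ in stage, so these levels stand side by side without a test. In reads, the 92 genes took 1.25 to 1.42% of all reads on genes in *Tet* null IFM, 1.37 to 1.42% in *Tet* CD IFM, 1.24 to 1.41% in *Tet-GFP* IFM and 1.49 to 1.95% in wild-type IFM. They took 8.10 to 8.75% in *Tet* null discs and 7.37 to 8.40% in wild-type discs. Transcripts of the mitochondrial genome held 31.0 to 47.8% of the reads of the IFM libraries. In discs this value was exactly 0% in every library, which cannot be read as a measured absence of these transcripts. The shares of the members in all reads thus have unlike denominators. Of the reads on nuclear protein-coding genes, the members took 2.29 to 2.39% in *Tet* null IFM and 2.53 to 2.69% in *Tet* CD IFM. They took 2.32 to 3.02% in *Tet-GFP* IFM and 3.05 to 3.18% in wild-type IFM. In discs this share was 8.79 to 9.34% in *Tet* null and 7.93 to 9.06% in wild type.

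*RpL41*, which codes for a very short basic peptide of the 60S subunit, was the highest member in both wild-type tissues, at 4098 ± 1038 RPKM (SD, n = 3) in discs and 1193 ± 182 RPKM (SD, n = 2) in IFM. *RpLP2*, 1 of the acidic proteins of the ribosomal stalk that recruit elongation factors, came next in IFM at 583 ± 76.7 RPKM, followed by *RpL14* at 490 ± 37.2 RPKM. In discs *RpL23* was also among the highest, at 2916 ± 906 RPKM (SD, n = 3), and the disc ranges of *RpL41* and *RpL23* overlapped. *RpL23* had the largest ratio among the 81 genes, since it was at rank 28 of 92 in IFM with 263 ± 46.6 RPKM. At the other end, *RpL39* was at 206 RPKM in discs and 237 RPKM in IFM, and *RpL10Ab* at 274 RPKM in discs and 273 RPKM in IFM. Over the 81 genes, log2 levels in the 2 wild-type tissues had a Pearson r of 0.73 and a Spearman rho of 0.59. Within a tissue, the 2 wild-type IFM libraries had a Pearson r of 0.97, and the lowest of the 3 pairs of wild-type disc libraries also had 0.97. These correlations run across genes of the same libraries and describe them only.

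**Figure D1:**
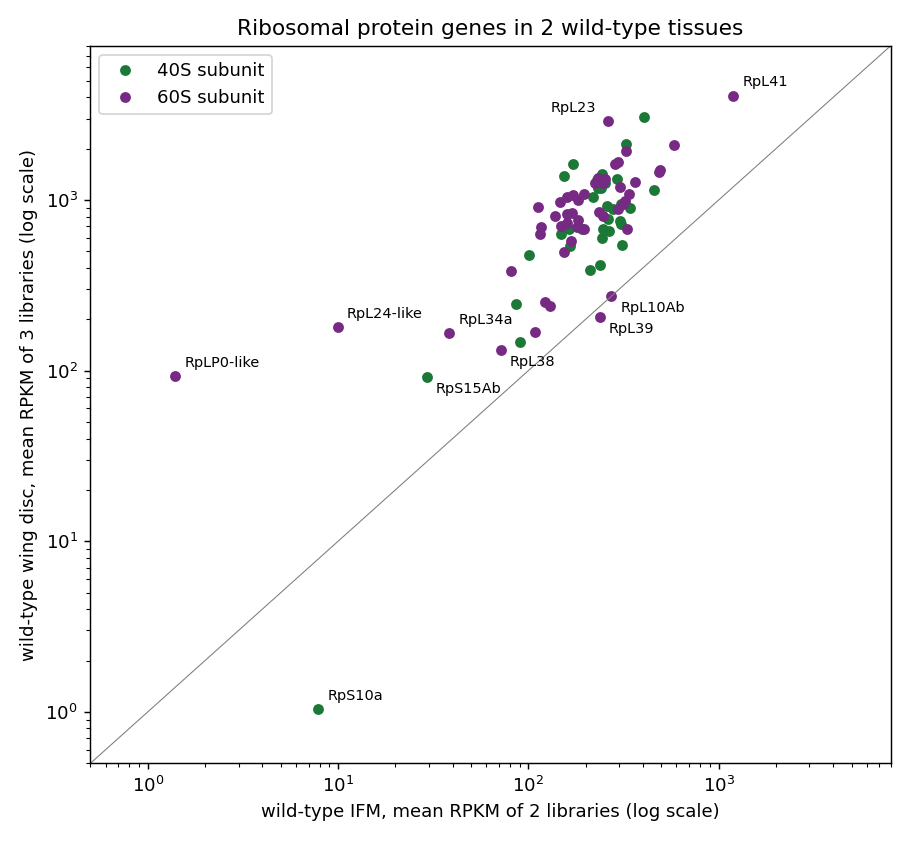
Mean RPKM of each ribosomal protein gene with at least 0.5 RPKM in wild-type IFM (x axis, 2 libraries, log scale) against wild-type wing discs (y axis, 3 libraries, log scale), with 40S genes in green, 60S genes in purple and the line of equal values in grey. *RpS10a*, at 1.05 RPKM in discs and 7.88 RPKM in IFM, lies far below the line, and *RpLP0-like* and *RpL24-like* lie farthest above it.

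Among members with at least 0.5 RPKM, the lowest in wild-type IFM were *RpLP0-like* at 1.40 ± 0.346 RPKM, *RpS10a* at 7.88 ± 1.26 RPKM and *RpL24-like* at 9.97 ± 1.61 RPKM. The first and last of these were much closer to the other members in wild-type discs, at 93.2 ± 30.1 RPKM for *RpLP0-like* and 179 ± 31.3 RPKM for *RpL24-like*. In IFM, 8 members had a mean under 0.5 RPKM and entered no test. These were *RpL7-like*, *RpL10Aa*, *RpL22-like*, *RpL37b*, *RpS5b*, *RpS19b*, *RpS28a* and *RpS28-like*, and none exceeded 0.814 RPKM in any IFM library. All are copies of a gene that was expressed. Of the 8, *RpS19b* reached 5.19 RPKM in discs, and the other 7 stayed at 0.976 RPKM or below in every disc library except wild-type library 2. In wild-type disc library 2 they ran from 0.0492 RPKM for *RpL7-like* to 4.35 RPKM for *RpS28a*. *RpL7-like* also shares 98.8% of its exon bases with *CG34164* on the same strand. How reads on shared bases were counted is not described, so its low values may come from the counting.

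In IFM, nearly all ribosomal protein genes had lower values in *Tet* null than in wild type, by a similar and small factor, and only *RpS10a* passed the test. Of 84 members tested, 82 had a log2 fold change below 0, against 52.3% of all 8466 genes tested, and 2 above 0, against 47.7%. The median was -0.42, which is a fold of 0.749, and the middle quartiles ran from -0.48 to -0.36, against a median of -0.03 over all genes. In 77 of the 84, both *Tet* null libraries were below both wild-type libraries, against 30.2% of all genes, and in 1 both were above, against 29.0%. With limma on log2(RPKM + 0.5), 0 members rose and 1 fell when a call needed an adjusted P below 0.05 plus a fold above 1.5, with a background of 5.5% of genes called higher, 2.79% called lower and 8.29% in all. At an unadjusted p under 0.05, 0 were higher and 3 lower, against 15.6% and 11.2% of all genes. The median standard error of a member was 0.25, and the *Tet* null libraries had medians over the 81 genes of 193 and 158 RPKM, against 226 and 237 RPKM in wild type. Without *Tet* null library 2, whose member median was the lowest, the median log2 fold change was -0.29, against 0.00 over all genes, and 80 of 84 members were below 0, against 49.8% of genes.

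**Figure D2:**
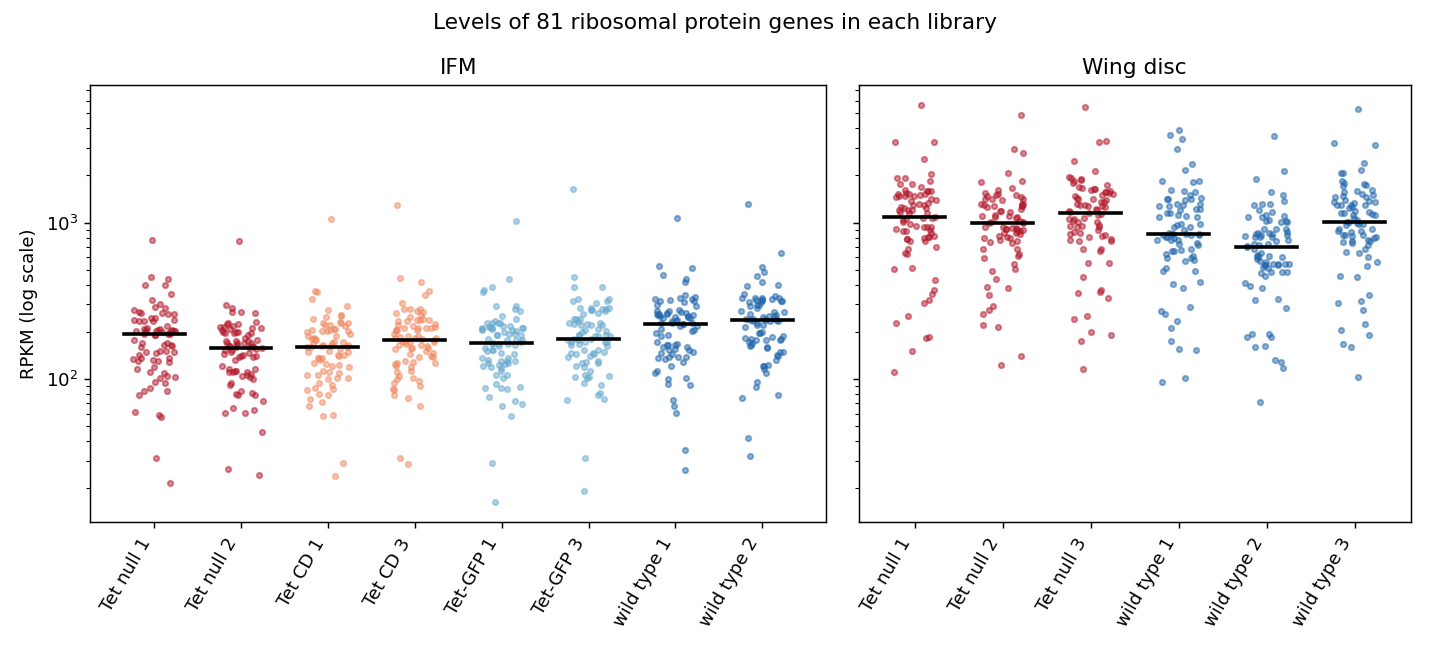
RPKM (log scale) of the 81 ribosomal protein genes with an IFM median of at least 20 RPKM, each point 1 gene, in the 8 IFM libraries and the 6 wing disc libraries, with the median of each library as a black bar. Medians were 193 and 158 RPKM in *Tet* null IFM and 226 and 237 RPKM in wild-type IFM, and the lowest disc median, 694 RPKM, was that of wild-type library 2.

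The lower values were spread over the whole set. The median log2 fold change was -0.44 for 34 genes of the 40S subunit and -0.41 for 50 genes of the 60S subunit. By chromosome arm the medians ran from -0.48 on 3L to -0.40 on 2L, where all genes of each arm had medians of -0.06 to -0.02. The 28 members with a snoRNA gene inside their span had a median of -0.44 and the 56 others tested one of -0.40. Members are short, with a median exon length of 901 bp against 1734 bp for protein-coding genes, and the 2060 tested genes under 1 kb had a median log2 fold change of -0.17, against -0.00 for the 6386 longer ones. Within the members, genes shorter than 909.5 bp and the longer ones had the same median to within 0.02, -0.41 and -0.42. With a length trend over all genes removed, the members' median was -0.25.

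Among the members, *RpS3*, whose product lies at the mRNA entry of the 40S subunit, was at 165 and 140 RPKM in the *Tet* null IFM libraries, against 210 and 249 RPKM in wild type. *RpS6*, the substrate of S6 kinase, was at 205 and 162 RPKM in *Tet* null, against 245 and 238 RPKM in wild type. *RpL32*, widely used as a reference gene in flies under the name rp49, was at 164 and 142 RPKM in *Tet* null, against 191 and 200 RPKM in wild type. In each the 2 groups did not overlap, and none of them passed the test. *RpL11*, a protein of the 5S RNA particle, had 142 and 115 RPKM in the *Tet* null IFM libraries, against 164 and 173 RPKM in wild type. *RpS12*, needed in flies for the elimination of cells lacking a copy of other ribosomal protein genes, had 265 and 169 RPKM in *Tet* null, against 293 and 330 RPKM in wild type. *RpL40* and *RpS27A*, which are made as fusions with ubiquitin, had the same order. *RpL40* was at 192 and 176 RPKM in *Tet* null, against 236 and 259 RPKM in wild type, and *RpS27A* at 238 and 211 RPKM in *Tet* null, against 267 and 293 RPKM in wild type.

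The stalk proteins spanned the range. *RpLP2* was at 399 and 284 RPKM in the *Tet* null IFM libraries, against 529 and 637 RPKM in wild type, or -0.79 on the log2 scale (SE 0.29, adjusted P = 0.18, limma). *RpLP0*, the base of the stalk, was at 192 and 145 RPKM in *Tet* null, against 217 and 233 RPKM in wild type, and *RpLP1* at 287 and 230 RPKM in *Tet* null, against 344 and 317 RPKM in wild type. After *RpS10a*, the lowest log2 fold changes were those of *RpLP2* and of *RpS28b*, which was at 237 and 166 RPKM in *Tet* null, against 273 and 415 RPKM in wild type (adjusted P = 0.24, limma). The highest log2 fold changes were 0.31 for *RpL24-like*, 0.01 for *RpLP0-like* and -0.05 for *RpL36*, and none of these passed the test. *RpL24-like* was the only tested member with both *Tet* null libraries, at 13.5 and 11.5 RPKM, above both wild-type libraries, at 11.1 and 8.83 RPKM.

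*RpS10a*, an intronless copy of *RpS10b* on arm 3R (positions 27652760 to 27653363 of the dm6 assembly, plus strand), was the only member called in IFM. It was at 2.13 and 2.39 RPKM in *Tet* null, at 4.54 and 9.53 RPKM in *Tet* CD, at 6.56 and 2.52 RPKM in *Tet-GFP* and at 8.77 and 6.99 RPKM in wild type. The *Tet* null values were the lowest of the 8, but 1 *Tet-GFP* library came close to them. The log2 fold change of *Tet* null over wild type was -1.60 (SE 0.21, adjusted P = 0.030, limma). With any of the 4 libraries left out, the log2 fold change was -1.75 to -1.44 and the adjusted P 0.077 to 0.17, in fits that called 0 to 47 genes in all. The call was lost when low genes were kept (adjusted P = 0.057) and when all 4 IFM groups were fitted together (adjusted P = 0.093, limma in each case). In discs it was at 0, 0.0688 and 0.159 RPKM in *Tet* null and at 0, 2.92 and 0.220 RPKM in wild type, where the value of 2.92 RPKM belonged to library 2.

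*Tet-GFP* IFM also had lower values than wild type for most members. Of the 84 members tested, 80 had a log2 fold change of *Tet-GFP* over wild type below 0, against 51.8% of all genes, with a median of -0.32, against -0.02 over all 8156 genes. In 63 members both *Tet-GFP* libraries were below both wild-type libraries, against 22.4% of all genes, and in 0 were both above, against 20.6%. None was called, with a background of 0.0%. At an unadjusted p under 0.05, 8 members were lower and 0 higher, against 5.93% and 4.4% of genes and 10.3% in all. The largest log2 fold changes were -0.85 for *RpS10a*, -0.70 for *RpS15Ab* and -0.64 for *RpS12* (adjusted P 0.41 to 0.62, limma), and *RpL38*, *RpL41* and *RpL39* had the highest, 0.15, 0.13 and 0.13. *RpS12* was at 200 and 198 RPKM in *Tet-GFP*, against 293 and 330 RPKM in wild type. This comparison shares its wild-type libraries with that of *Tet* null.

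Set against *Tet-GFP*, the *Tet* null members had a median log2 fold change of -0.10, against -0.04 over all 8369 genes. Of 84 members, 60 were below 0 and 24 above, against 52.4% and 47.6% of all genes, and 15 were lower without overlap, against 33.0% of all genes, while 5 were higher without overlap, against 30.1%. No member was called (background 0.0119%) and 0 had an unadjusted p under 0.05, against 26.6% of genes. *RpL41* had the lowest log2 fold change, -0.75 (SE 0.30, adjusted P = 0.21, limma), with 778 and 767 RPKM in *Tet* null, against 1027 and 1633 RPKM in *Tet-GFP*. *RpS10a* and *RpL39* followed with -0.74 and -0.51, and *RpS15Ab*, *RpL24-like* and *RpLP0-like* had the highest values, 0.37, 0.34 and 0.32. This median changed sign, to 0.02, when libraries were scaled to their reads on genes and also when the length trend was removed.

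In *Tet* CD IFM the ribosomal protein genes were close to their *Tet-GFP* levels. The median log2 fold change was -0.08 over 84 members, against -0.01 over all 8141 genes, and 69 members were below 0 and 15 above, against 52.0% and 48.0% of all genes. Without overlap, 17 were lower and 3 higher, against 18.8% and 15.4% of all genes. No member was called (background 0.0%), and 0 had an unadjusted p under 0.05, against 6.07% of genes, 2.7% of them lower. The extremes were *RpL10*, *RpL36* and *RpLP1* at -0.31, -0.29 and -0.29 and *RpS10a*, *RpS15Ab* and *RpLP0-like* at 0.62, 0.62 and 0.35. *RpS15Ab* was at 24.1 and 31.1 RPKM in *Tet* CD, against 16.3 and 19.3 RPKM in *Tet-GFP*, and did not pass the test (SE 0.23, adjusted P = 0.85, limma). With libraries scaled to their reads on genes the members' median was 0.08, on a scale that moved the median of all genes to 0.12.

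The effect of *Tet* null over wild type and that of *Tet* CD over *Tet-GFP* were compared in a single contrast over the 8 IFM libraries. None of the 84 members differed at an adjusted P under 0.05 (limma), against 0.683% of 8344 genes, and 2 did at an unadjusted p under 0.05, or 2.38%, against 18.7% of all genes. The median difference was -0.34 for the members and -0.01 for all genes. The 2 members were *RpS10a*, with a difference of -2.22 (SE 0.68, adjusted P = 0.18), and *RpS15Ab*, with -0.95 (SE 0.31, adjusted P = 0.20).

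**Figure D3:**
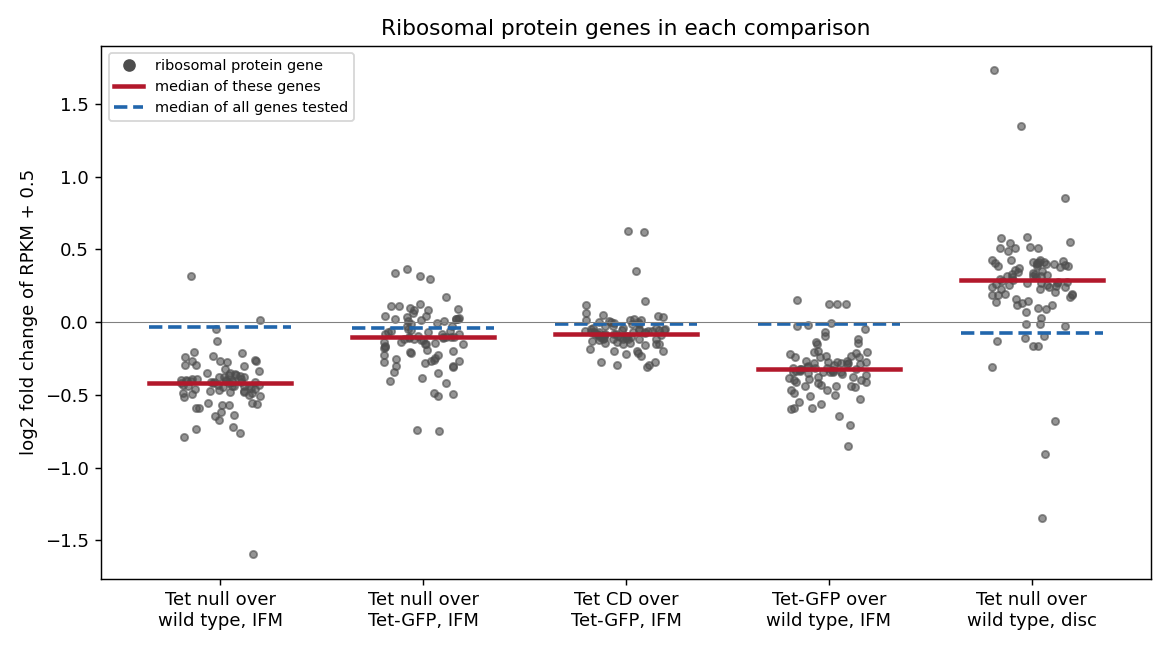
Log2 fold change of RPKM + 0.5 (y axis) of each ribosomal protein gene tested in the 5 comparisons (x axis), with the median of these genes in red and the median of all genes tested as a dashed blue line. The members' medians were -0.42, -0.10, -0.08 and -0.32 in the 4 IFM comparisons and 0.29 in discs.

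In wing discs, most ribosomal protein genes had higher values in *Tet* null than in wild type, and 2, *RpL39* and *RpS19b*, rose at the limits of the test. Of 88 members tested, 76 had a log2 fold change above 0, against 45.1% of all 12631 genes, and the median was 0.29, a fold of 1.22, against -0.08 over all genes. This median was 0.10, against -0.37 over all genes, when libraries were scaled to their reads on genes, and 0.57 with the length trend removed. Without overlap, 23 were higher and 1 lower, against 13.0% and 12.5% of all genes. The 2 members called were both higher, against 1.67% of genes called higher and 2.48% called lower. At an unadjusted p under 0.05, 6 were higher and 0 lower, against 9.35% and 8.37% of genes. Medians were 0.27 for 37 genes of the 40S subunit and 0.31 for 51 of the 60S subunit, and ran from 0.22 on the X to 0.37 on 3L. Left at 2 libraries without wild-type library 2, the wild type gave a median of 0.16, against 0.02 over all 9724 genes then tested, and 65 of 86 members were above 0, against 53.3% of genes. Without overlap, 24 of the 86 were then higher and 8 lower, against 21.1% and 19.0% of genes, and 2 were called, against 2.97%. The medians without it were 0.16 for the 40S subunit and 0.15 for the 60S subunit, and 0.06 to 0.23 over the arms. With the replicate number as a block, 3 members were called at the fold limit, against 7.41% of all genes. At the adjusted P alone 6 were called, against 12.9%. *RpL34a*, *RpLP1*, *RpS9* and *RpL22* were added to *RpL39* and *RpS19b*, and of those added *RpLP1* passed the fold limit. The p-values of this fit were those of a normal distribution (unadjusted p = 1.2e-18 for *RpL39*, limma). The spread of each gene by itself did not enter, so these calls carry less weight than those of the main fit.

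*RpL39*, which codes for a small protein at the exit of the nascent chain from the 60S subunit, had the largest rise. It lies on arm 2R (positions 24061853 to 24062431 of dm6, minus strand) in 3 exons of 288 bp in all, the shortest of the members, and shares 8 exon bases with *RpL12* on the other strand. It was at 766, 596 and 679 RPKM in *Tet* null discs, against 234, 161 and 224 RPKM in wild-type discs. All *Tet* null values were above all wild-type values. The log2 fold change was 1.73, a fold of 3.32 (SE 0.23, adjusted P = 5.0e-05, limma), and 1.56 without wild-type library 2 (adjusted P = 0.0036). It was just above the limit when the spread was not fitted against expression (adjusted P = 0.051, limma). In IFM the same gene was at 162 and 199 RPKM in *Tet* null, at 202 and 235 RPKM in *Tet* CD, at 207 and 317 RPKM in *Tet-GFP* and at 204 and 270 RPKM in wild type, so that the *Tet* null libraries were the lowest.

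*RpS19b* (arm 3R, positions 23932729 to 23933530, minus strand), a copy of *RpS19a* known in flies from the ovary, was much lower. It was at 4.28, 3.5 and 5.19 RPKM in *Tet* null discs, against 0.629, 3.37 and 0.996 RPKM in wild-type discs. The groups did not overlap, although the wild-type value of 3.37 RPKM, from library 2, lay just under the lowest *Tet* null value. The log2 fold change was 1.35 (SE 0.34, adjusted P = 0.026, limma), and 1.88 without library 2 (adjusted P = 0.014). The call was lost with 0.1 added before the logarithm, with low genes kept, with a limit of 1 RPKM, with scaling to reads on genes and with no trend (adjusted P 0.052 to 0.37). Next to its partner, *RpS19b* made up 0.558 ± 0.103% of the summed RPKM in *Tet* null discs and 0.314 ± 0.332% in wild-type discs (SD, n = 3 each). The wild-type share was 0.106, 0.696 and 0.139% by library, so that library 2 was above every *Tet* null library, and 0.122 ± 0.0237% without it (SD, n = 2).

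*RpLP1* was at 1204, 1118 and 1292 RPKM in *Tet* null discs, against 660, 541 and 830 RPKM in wild-type discs, without overlap. Its log2 fold change was 0.85 (SE 0.29, adjusted P = 0.11, limma), so it was not called in the main fit. The gene was called with the replicate block (adjusted P = 0.012, limma), a fit that did not use its own spread. The other stalk genes overlapped between the groups, with 1422, 1306 and 1442 RPKM in *Tet* null, against 1592, 839 and 1358 RPKM in wild type for *RpLP0*, and with 1855, 1856 and 1968 RPKM in *Tet* null, against 2386, 1561 and 2389 RPKM in wild type for *RpLP2*. *RpL27* had the next highest value among the abundant members, at 1029 ± 28.3 RPKM in *Tet* null and 698 ± 167 RPKM in wild type (SD, n = 3 each, adjusted P = 0.29, limma). The lowest log2 fold changes were those of *RpS28a*, *RpS10a* and *RpL22-like*, at -1.34, -0.90 and -0.68 (adjusted P 0.53 to 0.63, limma). In all 3 the highest value was that of wild-type library 2, and without this library *RpS28a* and *RpS10a* were under the limit of 0.5 RPKM.

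*RpS3* in discs was at 1288, 1185 and 1409 RPKM in *Tet* null, against 1278, 1099 and 1568 RPKM in wild type. *RpS6* was at 1246, 1273 and 1267 RPKM in *Tet* null, against 1417, 828 and 1296 RPKM in wild type. *RpL41* was at 5660, 4875 and 5476 RPKM in *Tet* null, against 3426, 3575 and 5293 RPKM in wild type. In each the groups overlapped, and the *Tet* null libraries were the more uniform.

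**Figure D4:**
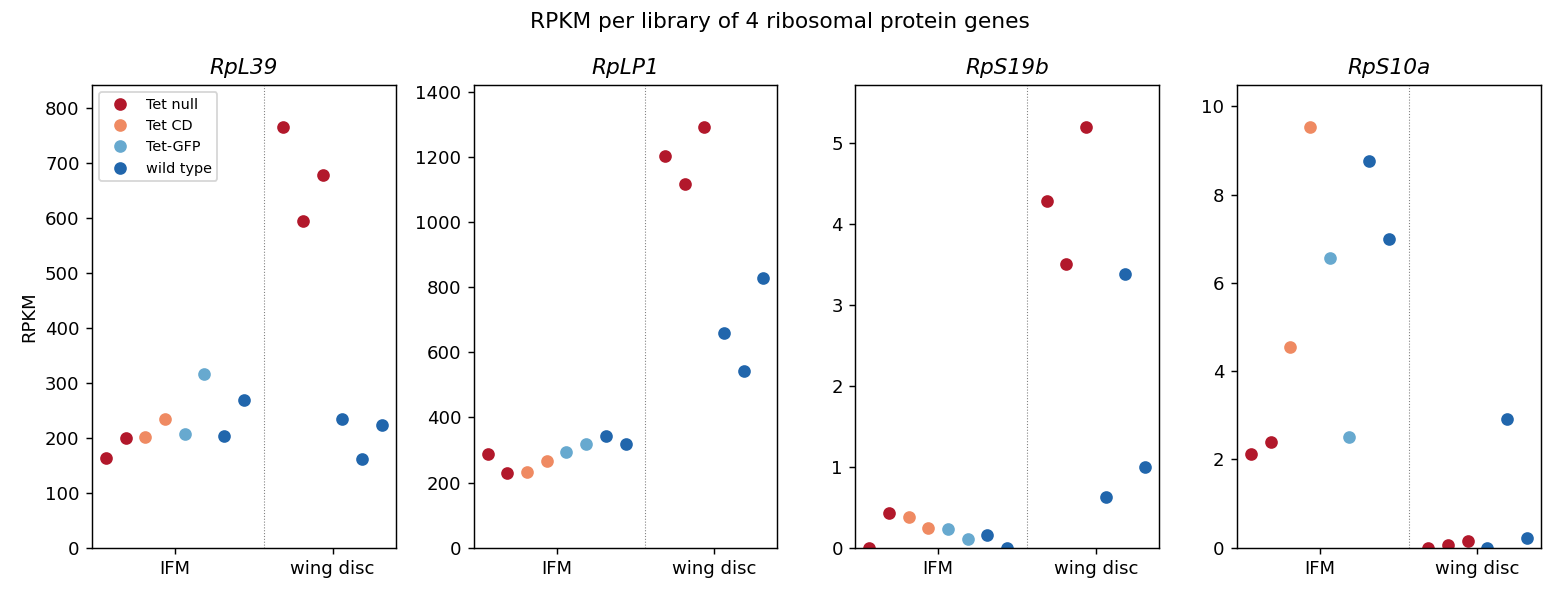
RPKM (y axis, from 0) in each of the 8 IFM and 6 wing disc libraries for *RpL39*, *RpLP1*, *RpS19b* and *RpS10a*, coloured by genotype, each point 1 library. *RpL39* lies at 596 to 766 RPKM in *Tet* null discs, above the 161 to 234 RPKM of wild-type discs, while in IFM *RpS10a* is lowest in the 2 *Tet* null libraries.

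The duplicated genes give a measure that does not depend on the scale of a library, the share of the less abundant copy in the summed RPKM of a pair. By symbol there are 9 pairs with a and b copies and 5 genes with a namesake ending in -like, 14 comparisons in all. Whether a -like gene stands in for its namesake in the ribosome was not tested. In 8 of them the less abundant copy stayed under 0.5 RPKM on average in IFM, and the other 6 are described here. How reads that match both copies were counted is not described, so that the shares are less certain for close copies. Exact 2-sided permutation tests cannot go below p = 0.33 with 2 against 2 libraries or p = 0.10 with 3 against 3, and no pair passed in any comparison, the lowest adjusted p over the 14 being 0.47 in discs.

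*RpS14a* and *RpS14b*, whose spans lie 220 bp apart on the X, were the most even pair. *RpS14b* made up 34.1 and 38.9% of the pair in *Tet* null IFM, 28.2 and 30.6% in *Tet* CD, 30.3 and 30.9% in *Tet-GFP* and 31.7 and 26.4% in wild type. Both *Tet* null libraries were above all 6 others, with a difference of 7.48 points from wild type (exact permutation p = 0.33). In discs *RpS14b* was at 36.2 ± 2.43% in *Tet* null and 38.9 ± 2.15% in wild type (SD, n = 3 each). *RpL34a* made up 27.1 and 26.9% of its pair in *Tet* null IFM, also above the other 6 libraries, which ran from 21.5 to 25.8%, and 21.5 ± 0.953% in *Tet* null discs, against 19.4 ± 1.87% in wild-type discs (SD, n = 3 each).

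*RpS15Ab*, an intronless copy, made up 9.63 and 11.7% of its pair in *Tet* null IFM, 11.7 and 13.2% in *Tet* CD, 7.44 and 8.39% in *Tet-GFP* and 9.32 and 10.6% in wild type. The *Tet* CD libraries were above both *Tet-GFP* libraries by 4.50 points on average (exact permutation p = 0.33). In discs the share was 11.2 ± 0.596% in *Tet* null and 10.6 ± 0.132% in wild type. *RpS10a* made up 2.61 and 3.52% of its pair in *Tet* null IFM, 6.34 and 10.7% in *Tet* CD, 7.85 and 2.99% in *Tet-GFP* and 8.63 and 6.02% in wild type. Here *Tet* null and *Tet-GFP* overlapped.

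*RpL24-like* and *RpLP0-like*, paired with their namesakes by symbol only, had higher shares in discs than in IFM. Listed genes of ribosome assembly also differed widely between the tissues. They summed to 52.0 to 54.5 RPKM in wild-type IFM and 1330 to 2110 RPKM in wild-type discs. A replacement of 1 copy by another was not tested. *RpL24-like* made up 9.43 and 9.33% of the sum with *RpL24* in *Tet* null IFM, against 7.05 and 5.61% in wild-type IFM. It was at 8.23 and 6.93% in *Tet* CD and 6.59 and 7.71% in *Tet-GFP* IFM. In discs it was at 18.7 ± 1.30% in *Tet* null, against 20.5 ± 0.855% in wild type. *RpLP0-like* made up 0.819 and 0.839% of the sum with *RpLP0* in *Tet* null IFM, against 0.750 and 0.491% in wild-type IFM. It was at 1.30 and 0.635% in *Tet* CD and 0.581 and 0.554% in *Tet-GFP* IFM, so that a *Tet* CD library had the highest share. These rest on 0.998 to 1.79 RPKM of *RpLP0-like* in IFM. In discs it was at 7.13 ± 0.294% in *Tet* null, against 6.84 ± 0.405% in wild type. The shares of *RpL24-like* and *RpLP0-like* were higher in every disc library than in any IFM library.

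**Figure D5:**
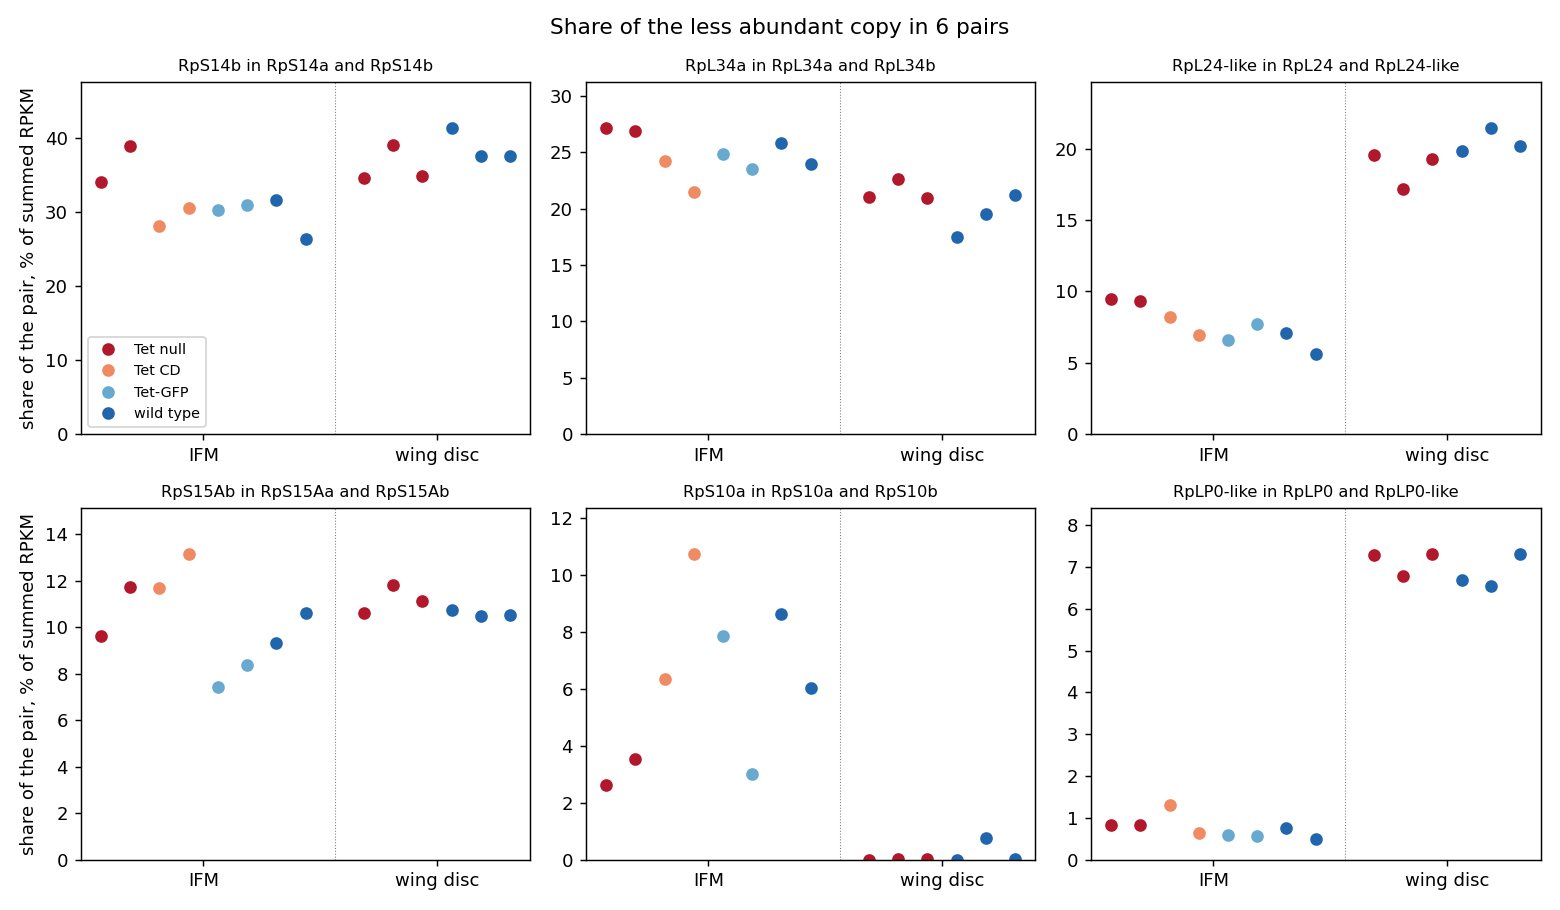
Share of the less abundant copy in the summed RPKM of 6 pairs (y axis, %, from 0), 1 point for each of the 8 IFM and 6 wing disc libraries, coloured by genotype. The *RpS14b* and *RpL34a* shares are highest in the 2 *Tet* null libraries of IFM, and the *RpL24-like* and *RpLP0-like* shares are higher in all disc libraries than in all IFM libraries.

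Other genes of translation were counted from lists. In IFM, all 7 elongation factors and 23 of 26 initiation factors tested were below 0 in *Tet* null over wild type, with medians of -0.48 and -0.30, and 0 of them were called. *eEF2*, the translocase, was at 277 ± 32.4 RPKM in *Tet* null and 327 ± 0.864 RPKM in wild type (SD, n = 2 each). Genes of ribosome assembly had 20 of 26 below 0 and a median of -0.21, with 0 called. The ribosomal proteins of mitochondria, which translate the mitochondrial genome, had 71 of 72 below 0, a median of -0.81 and 7 genes called lower, where over all genes 52.3% were below 0 and 2.79% called lower. Of 13 listed regulators of ribosomal protein genes and of translation, 1 was called, against 5.5% of all genes called higher. It was *Thor*, the fly 4E-BP that binds eIF4E. It was higher in *Tet* null, at 69.0 ± 36.9 RPKM, against 11.4 ± 1.25 RPKM in wild type, or 2.43 on the log2 scale (SE 0.44, adjusted P = 0.047, limma). *Thor* was also at 47.7 ± 13.8 RPKM in *Tet-GFP* IFM, which did not pass the test over wild type (adjusted P = 0.24), and at 11.3 ± 1.88 RPKM in *Tet* CD IFM. *Tet-GFP* over wild type had 0 of these genes called, with medians of -0.23 for elongation factors, 0.03 for initiation factors and -0.10 for mitochondrial ribosomal proteins.

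In discs the same lists were mostly above 0, with 6 of 7 elongation factors, 26 of 27 initiation factors, 9 of 10 RNA polymerase I genes and 32 of 32 genes of ribosome assembly. Their medians were 0.36, 0.32, 0.29 and 0.40, where 45.1% of all genes were above 0. Without wild-type library 2 they had 6, 21, 9 and 31 genes above 0, where 53.3% of all genes were. Their medians were then 0.19, 0.12, 0.23 and 0.23. Among them 1 gene of ribosome assembly (*CG4038*, at 219 ± 39.4 RPKM in *Tet* null and 129 ± 29.8 RPKM in wild type) was called higher and 1 elongation factor (*eEF1alpha2*) lower. *eEF1alpha2* was at 2.88 ± 1.76 RPKM in *Tet* null discs and 14.9 ± 4.53 RPKM in wild-type discs (SD, n = 3 each), or -2.27 on the log2 scale (SE 0.28, adjusted P = 1.9e-05, limma). Neither call held without wild-type library 2 (adjusted P = 0.13 for *CG4038* and 0.063 for *eEF1alpha2*, limma). Of 70 mitochondrial ribosomal proteins, 63 were above 0 and 6 were called higher, against 1.67% of genes, with a median of 0.35. Without wild-type library 2, 59 were above 0, against 53.3% of all genes, and the median was 0.23. Then 1 was called higher and 1 lower, against 2.97% of all genes called in either direction.

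Markers of other cells moved with the groups. In *Tet* null IFM, 4 of 5 neuron markers and 1 of 3 glia markers were called higher over wild type, against 5.5% of all genes. The neuron markers summed to 39.2 to 49.9 RPKM in *Tet* null and 7.46 to 8.12 RPKM in wild type (6.25 to 19.3 RPKM in *Tet-GFP*). The glia markers summed to 114 to 178 RPKM in *Tet* null and 40.4 to 68.2 RPKM in wild type (50.9 to 61.4 RPKM in *Tet-GFP*). Over *Tet-GFP*, 0 neuron and 0 glia markers were called, where 0.0119% of all genes were. In *Tet* null discs, all 4 fat body markers and 3 of 4 hemocyte markers were called higher, against 1.67% of all genes. Their sums were 110 to 115 RPKM against 18.9 to 53.9 RPKM and 22.5 to 37.6 RPKM against 6.68 to 14.6 RPKM in wild type. Of 4 adult muscle progenitor markers, 2 were called lower in *Tet* null discs, against 2.48% of all genes. Their sum was 30.2 to 36.5 RPKM against 51.9 to 76.6 RPKM in wild type. Germline markers, which would bear on the copies known from gonads, summed to 0.0897 to 0.312 RPKM in *Tet* null IFM and 0.115 to 0.281 RPKM in wild-type IFM, and to 0.569 to 1.57 RPKM in *Tet* null discs and 1.42 to 9.76 RPKM in wild-type discs. Without wild-type disc library 2, 1 fat body marker, 1 hemocyte marker and 2 progenitor markers were called, against 2.97% of all genes in either direction. The wild-type sums were then 18.9 to 53.9, 6.68 to 13.3 and 62.5 to 76.6 RPKM, with 1.42 to 1.57 RPKM for germline markers. In *Tet* CD IFM all 4 fat body markers were above *Tet-GFP* without overlap, against 15.4% of all genes. Their sums were 111 to 197 RPKM in *Tet* CD and 47.4 to 61.5 RPKM in *Tet-GFP*, and 0 were called, against 0.0% of all genes. The part of these cells in the results was not tested, and in bulk tissue a change in the mix of cells and a change of RNA per cell cannot be told apart.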

How the data were processed

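RNA was extracted by the study's authors from dissected IFM at 96 h after puparium formation and from wing discs, and libraries were made with the Ovation SoLo kit and sequenced in paired ends. Reads were trimmed, aligned to dm6 with HISAT2 2.1.0, counted per gene with HTSeq 0.11.2 and turned into RPKM by the authors. The submitters' processing notes also name DESeq2 1.22.2. The deposited values are RPKM, written with decimal commas and recorded here under the unit other because of the commas. Read totals were not used here. Low values fell within 0.05 of whole reads for 98.2 to 99.6% of values at an estimated scale. On the wing disc table, every library had the same median ratio to the geometric mean over genes (1.00), and in IFM it ran from 0.998 to 1.03, so that the scale is not the total of reads on genes.

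The fits used limma 3.58.1 on log2(RPKM + 0.5) (lmFit, eBayes with trend) in R 4.3.3 over genes with a mean of at least 0.5 RPKM in the libraries compared, followed by Benjamini-Hochberg adjustment over all genes tested. Fold changes of low genes are understated by the constant. Calls needed an adjusted P under 0.05 and a fold over 1.5. The test of the authors needs counts, so limma on a log scale stands in for it. Pair shares were compared with exact permutation tests (scipy 1.17.1), with Python 3.11.15, pandas 2.3.3, numpy 2.4.6 and matplotlib 3.10.9 for tables and plots. The procedure was tested on simulated data. Gene positions are those of Ensembl release 115 (BDGP6.54, the dm6 assembly). Of the members, 32 share exon bases with another gene and 25 with a gene on the opposite strand. *RpS9* shares 50.3% of its exon bases with an antisense RNA, and these reads cannot be told apart where strand was not used.

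The members and lists were chosen with earlier results of these data known. Genes were named if they belong to a pair, were called, had 1 of the 3 largest rises or falls in a comparison, were among the 3 highest or lowest in a wild-type tissue, were under the limit, or were in a list of 11 known members. A result that the rule would have named is not reported here. Genes of the other lists were chosen after seeing their values. For *Tet* null IFM library 1 the tissue entry reads wing disc, whereas the title, the age and the table are those of IFM, which was followed. The second columns of *Tet* CD and *Tet-GFP* carry the number 3 and were used as libraries of their group. For the replicate block in discs, deviations of same-numbered *Tet* null and wild-type libraries from their group means correlated at 0.18, 0.30 and 0.15 over 12631 genes, all above 0.1, and those of differently numbered libraries at -0.31 to 0.19. *Tet* null library 1 correlated more with wild-type library 3, at 0.19, than with its own number. The numbers come from the sample titles.

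The alternatives were constants of 0.1 and 1, no limit or a limit of 1 RPKM, median-ratio scaling, no trend, all IFM groups in a single fit, a length trend removed, the replicate block and each library left out. Scaling to reads on genes and leaving out the 5 genes matched by symbol were added after seeing the data, as were the disc values without wild-type library 2 for lists, pairs and levels.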

Additional observations from a re-analysis of the deposited data

Results flagged for a closer look

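In 22 of the 92 ribosomal protein genes, both *Tet* null IFM libraries were below both wild-type IFM libraries while all 3 *Tet* null disc libraries were above all 3 wild-type disc libraries. They include *RpL39*, *RpLP1*, *RpL34a*, *RpS15Aa*, *RpS15Ab* and *RpS26*, and the opposite pattern was found in 0 members. The result was singled out because every library of a group moved one way in IFM and the other way in discs. Of the 79 members tested in both tissues under the same identifier, 22, or 27.8%, showed it, against 5.76% of the 7645 genes tested in both. Each part was already frequent among the members. In IFM 77 of 84 were lower without overlap, against 30.2% of all genes, and in discs 23 of 88 were higher, against 13.0%. A raised joint count follows from these shifts and is not a separate result. The difference between the tissues was not tested, since the tables were normalised separately. The count was also 22 without wild-type disc library 2. The IFM part rests on the wild-type libraries. Against *Tet-GFP* IFM, 15 of 84 members were lower in *Tet* null without overlap, against 33.0% of all genes. *Tet-GFP* itself was below wild type without overlap in 63 of 84, against 22.4%.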

How the results depend on the processing

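For the calls at adjusted P and fold, the single *Tet* null over wild type call in IFM became 0 with no limit on low values and with all IFM groups in a single fit, under both call rules, and 0 without any of the 4 libraries (range 0 to 0). All-gene calls there were 702, and 0 to 47 with a library left out. In discs, the 2 calls became 1 with 0.1 added and with no limit, and 0 with no trend, under both rules. They became 6 with the replicate block at adjusted P alone, a fit that did not use the spread of each gene by itself. The call of *RpS19b* was also lost with a limit of 1 RPKM and with scaling to reads on genes. Leaving out a disc library gave 2 to 4 calls under either rule, with 4 without wild-type library 3. Without that library, 459 of all 13667 genes tested were called higher and 459 lower. Over all the fits with a disc library left out, 127 to 459 genes were called higher and 162 to 459 lower. All-gene calls in discs were 524, and 174 with no limit, 34 with no trend and, with the replicate block, 343 higher and 593 lower. The other IFM comparisons and the contrast of effects kept 0 members called in every alternative.

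The members' median log2 fold change moved by more than 1 SD of the library medians with the length trend removed, to -0.25 for *Tet* null and -0.26 for *Tet-GFP* over wild type in IFM and to 0.57 in discs, and to 0.083 for *Tet* CD over *Tet-GFP* with scaling to reads on genes. That scaling moved the median of all genes to 0.12 there and to -0.37 in discs, where the members' median was 0.10, or 0.47 above it. Leaving out single libraries gave medians of -0.56 to -0.29 for *Tet* null over wild type, -0.25 to 0.034 for *Tet* null over *Tet-GFP*, -0.17 to 0.012 for *Tet* CD over *Tet-GFP*, -0.40 to -0.25 for *Tet-GFP* over wild type and 0.16 to 0.41 in discs.

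Directions turned for genes near 0. *RpL36* in *Tet* null IFM over wild type was at 0.038 with scaling to reads on genes and ran from -0.17 to 0.077 with a library left out, and *RpLP0-like* from -0.18 to 0.20. In *Tet-GFP* over wild type, *RpL39* ran from -0.18 to 0.43, *RpL41* from -0.21 to 0.46 and *RpL38* from -0.085 to 0.39. The *RpS15Ab* share in IFM differed by -0.345 to 1.77 points over the libraries left out, against 0.713 with all. The causes were not tested.

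The same-numbered *Tet* null and wild-type IFM libraries correlated at 0.09, and those of *Tet* CD and *Tet-GFP* at 0.47 by column number, which with 2 pairs and no label of a shared source does not settle whether the numbers pair the libraries. With the replicate block, 1 member was called in the first comparison and 0 in the second, and the medians were -0.42 and -0.08. The 2 other IFM comparisons share a single number, and no paired analysis was possible because of that. In *Tet* null over wild type the median standard error of a member in IFM was 0.25, and values below about 0.1 RPKM rest on a few reads.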
